A study of Mus musculus with 10 samples.

Results

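All-trans retinoic acid (ATRA) was given to mice carrying a transplanted PML-RARα leukaemia, and a sorted subset of the marrow leukaemia cells called TD was profiled with and without the drug. The comparison used 4 of the 10 arrays of the series: the 2 arrays titled APL RATD subset (ATRA, called RATD here) and the 2 titled APL TD subset (untreated, called UNTD). The PML-RARα fusion and a retroviral GFP label were shared by treated and untreated cells, the mice were FVB N/J of 8 to 10 weeks, and GFP-positive cells were sorted from bone marrow after growth in syngeneic recipients. RATD mice received ATRA at 10 mg/kg, for 5 days according to the treatment protocol and for 3 to 5 days according to the sample source names. The remaining arrays hold an SC subset (UNSC, untreated) and a PD subset without (UNPD) and with (RAPD) the same ATRA treatment, 2 arrays each. SC, PD and TD are not spelled out in the labels. The labels call the 2 arrays of a group biological replicates and do not say whether animals were pooled, so p-values measure the spread between these samples. Neither the promoter driving the transgene nor the number of primary leukaemias behind the transplants is given in the sources used here.

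Acute promyelocytic leukaemia is a block of granulocyte development at the promyelocyte stage, driven by the fusion protein PML-RARα, whose RARα portion is a receptor for retinoic acid. ATRA is the natural ligand of that receptor and lets the leukaemic cells resume maturation towards neutrophils. A maturing neutrophil first fills primary granules with enzymes such as myeloperoxidase, then makes secondary and tertiary granules with proteins such as lactoferrin and gelatinase, and later gains the receptors and oxidase of a phagocyte. Retinoic acid also induces Cyp26a1, the enzyme that degrades it.

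Signals are log2 MAS5 values, on which 1 unit is a doubling. A difference is written as RATD minus UNTD, ± the standard error of a limma fit to all 10 arrays. A gene is called at an adjusted p under 0.05 (Benjamini-Hochberg over the 14581 genes tested), and rose or fell is used only of called genes. The dim-signal level is an array's 40th percentile (4.94 to 5.12 on these 4 arrays).

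The 2 treated arrays were unlike each other. Over 6329 bright genes the log2 values of the RATD arrays differed with an SD of 0.467, against 0.256 for the UNTD arrays. RATD replicate 1 lay near the untreated arrays (SD 0.312 and 0.309 against UNTD replicates 1 and 2), and RATD replicate 2 lay farther off (0.571 and 0.569). Of the measured granulocytic markers, 11 of 11 were above the dim-signal level on all 4 arrays, which alone does not settle the cell type. Of the 10 monocyte and macrophage markers, 7 were also above it on all 4 arrays, among them Csf1r, the receptor for the macrophage growth factor. Their summed linear signal was 34170 and 41210 in UNTD, 33540 in RATD replicate 1 and 16000 in RATD replicate 2. In the other untreated subsets that sum was far lower, at 4214 and 4061 in UNSC and 6112 and 5061 in UNPD. Summed granulocytic markers were 264100 and 184500 in UNTD and 274000 and 331700 in RATD. The same granulocytic sum was 244900 and 254600 in UNSC and 337600 and 320000 in UNPD. Summed mast cell, basophil and eosinophil markers (4 measured) were 1034 and 759 in UNTD, and 2143 and 1663 in RATD. Of 3 megakaryocyte markers, 2 (Pf4 and Itga2b) were above the dim-signal level on all 4 arrays. The megakaryocyte sum was 422 and 250 in UNTD, and 337 and 432 in RATD. A list of 15 measured megakaryocyte and platelet genes had a median difference of -0.65, beside -0.01 for all genes. No measured marker of erythroid cells (2), B cells (3), T and NK cells (2) or stroma and endothelium (4) was above the dim-signal level on all 4 arrays.

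**Figure D1:**
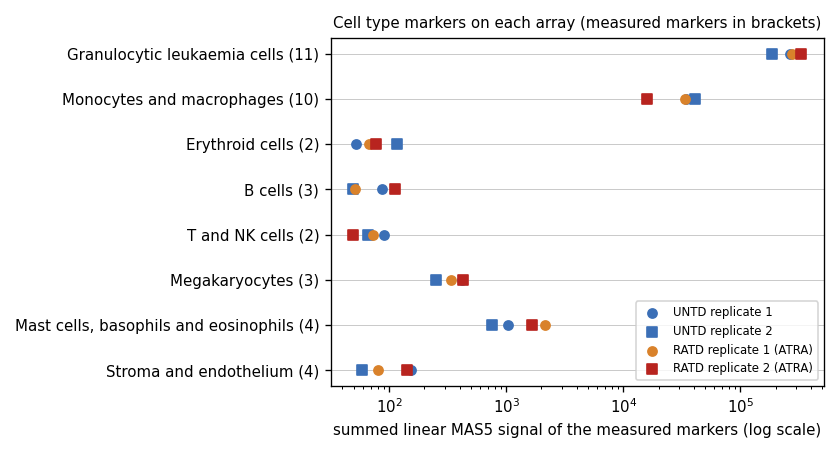
Summed linear MAS5 signal of the measured markers of each cell type (log axis), with 1 point for each of the 2 UNTD and 2 RATD arrays and the number of measured markers in brackets. The monocyte and macrophage sum of RATD replicate 2 (16000) lies below the other 3 arrays (33540 to 41210).

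In ATRA-treated TD cells the granule protein genes Ltf, Lrg1, Pglyrp1, Ngp and Olfm4 rose, as did the glucose transporter Slc2a3 and the adhesion ligand Vcam1. The early-response genes Dusp1 and Rgs1 fell, as did the fractalkine receptor Cx3cr1, the chemokine Ccl3 and the lipid synthesis enzymes Sqle, Fads2 and Scd2. Of 14581 genes, 42 were called (0.288%): 28 rose (0.192%) and 14 fell (0.0960%). At an unadjusted p under 0.05 there were 1562 (10.7%), 807 higher (5.53%) and 755 lower (5.18%). Both RATD arrays lay above both UNTD arrays for 2905 genes (19.9%) and below them for 2966 (20.3%). The median difference of all genes was -0.01. The set of calls rested on each array: 856 genes were called without RATD replicate 1, 16 without RATD replicate 2, 6 without UNTD replicate 1 and 1 without UNTD replicate 2. With a spread model that had no intensity trend 1 gene was called. With the 4 arrays alone in the fit 0 were (1263 at an unadjusted p under 0.05). The 42 called genes kept their sign in every alternative fit in which they were measured. Their groups did not overlap, so leaving out 1 array could not change a sign. A change of the spread model alone could not either, because it leaves the difference as it is.

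Taken by itself, RATD replicate 2 carried most of the departure from the untreated arrays. Relative to the UNTD mean, 998 genes lay more than 1 log2 unit higher (6.84%) and 999 more than 1 unit lower (6.85%) in RATD replicate 1, against 1526 (10.5%) and 1495 (10.3%) in RATD replicate 2. Many of those genes were dim. Among the 6462 genes with a mean of at least 9 over the 4 arrays, the counts were 35 higher and 38 lower in RATD replicate 1, and 215 and 258 in RATD replicate 2. When each treated array was fitted without the other, its single value was assumed to vary like the other groups. The spread between the 2 RATD arrays was thereby left out of the error. Counts from such fits do not measure the size of a response. RATD replicate 1 then gave 15 genes called higher (0.103%) and 1 lower (0.00686%), and RATD replicate 2 gave 409 (2.81%) and 447 (3.07%). The 28 genes that rose had a median difference of 1.93 in RATD replicate 1 and 3.34 in RATD replicate 2, and 25 of them differed more in replicate 2. These medians include 4 genes with UNTD values under the dim-signal level, whose exact differences are not measured. The 14 that fell had medians of -1.61 and -2.18, and 11 differed more in replicate 2. Alone, RATD replicate 1 called 7 of the 28 and 1 of the 14.

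**Figure D2:**
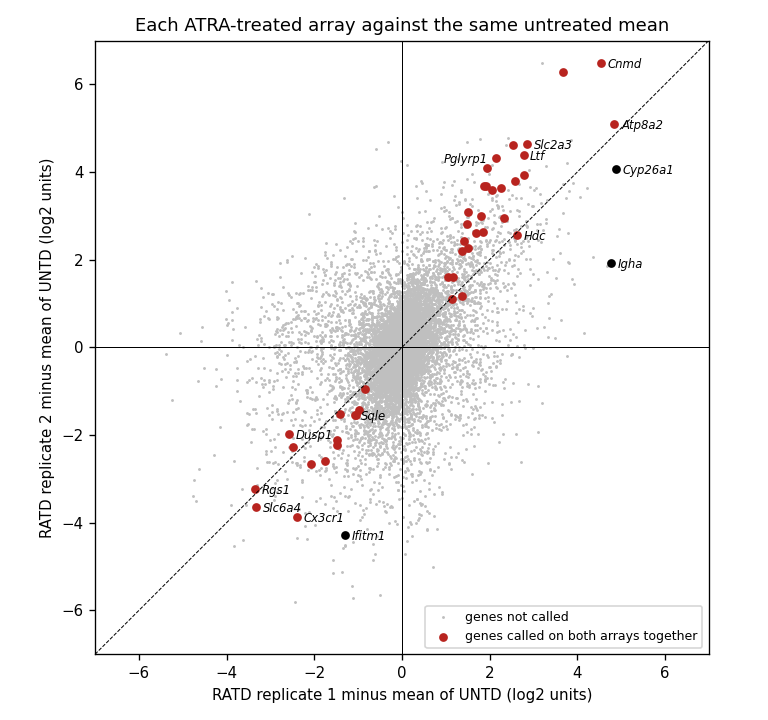
Difference of each gene from the UNTD mean in RATD replicate 1 (horizontal axis) and in RATD replicate 2 (vertical axis), both in log2 units, with the 42 called genes in red, other genes in grey, 3 uncalled genes of the text in black and equality as a dashed line. Most called genes that rose lie above the line, 25 of 28 being farther from UNTD in RATD replicate 2.

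Late granule genes were among those that rose, with each treated array above each untreated array. Ltf, which encodes the iron-binding protein lactoferrin, read 11.28 and 10.01 in UNTD, 13.42 in RATD replicate 1 and 15.05 in RATD replicate 2. Its difference was 3.59 ± 0.48 (14.23 ± 1.15 against 10.65 ± 0.90, SD, n = 2; limma adjusted p = 0.014). The treated arrays did not overlap the untreated ones, and lay 2.78 (replicate 1) and 4.40 (replicate 2) above the UNTD mean. Lrg1, a glycoprotein stored in neutrophil granules, read 9.08 and 9.05 in UNTD and 11.33 and 12.70 in RATD, a difference of 2.95 ± 0.35 (adjusted p = 0.00818). Pglyrp1, a peptidoglycan-binding antibacterial protein, read 9.49 and 8.99 in UNTD and 11.38 and 13.57 in RATD (3.23 ± 0.50, adjusted p = 0.028). For all 3 genes the second treated array stood more than 1 unit above the first. Ngp and Olfm4, whose products are found in the specific granules, rose by smaller amounts. Ngp read 14.28 and 13.52 in UNTD and 15.07 and 15.50 in RATD (1.38 ± 0.24, adjusted p = 0.0438). Olfm4 read 13.81 and 13.45 in UNTD and 14.67 and 15.24 in RATD (1.32 ± 0.21, adjusted p = 0.0304).

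The list of late granule genes had 32 measured members, of which 5 rose and 1 fell (0.192% and 0.0960% of all genes). The list's median difference was 0.67, with 0.23 in RATD replicate 1 and 0.97 in RATD replicate 2, beside -0.01 for all genes. At an unadjusted p under 0.05, 16 were higher and 1 lower (5.53% and 5.18% of all genes). The member that fell was Slc11a1, a metal ion transporter of phagosome membranes, at 11.20 and 11.31 in UNTD and 9.78 and 9.03 in RATD (-1.85 ± 0.28, adjusted p = 0.028). The gelatinase Mmp9 read 8.25 and 7.86 in UNTD and 10.04 and 12.01 in RATD (2.97 ± 0.55) but missed the threshold at an adjusted p of 0.0582. The collagenase Mmp8, at 6.76 and 6.73 in UNTD and 10.35 and 8.89 in RATD (2.88 ± 0.54), missed it at 0.0627. Mmp8 was higher in RATD replicate 1 than in replicate 2, the reverse of Mmp9. Camp, the cathelicidin precursor, did not pass (0.70 ± 0.20, adjusted p = 0.216). Fcnb, the ficolin of these granules, read 8.52 and 8.07 in UNTD and 9.78 and 12.14 in RATD (2.67 ± 0.54, adjusted p = 0.0739). The 2 RATD arrays also differed in summed monocyte and macrophage markers (33540 and 16000), and the part of that difference in the granule values was not tested. In bulk RNA, fewer cells of a type and less RNA per cell cannot be told apart.

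Promoters of the 5 granule genes that rose were searched on both strands for TTGCNNAA, a relaxed form of the binding site of C/EBP factors, which drive granulocyte genes. The window was the RefSeq promoter (GRCm38.p6) from 250 bases before to 50 after the start of transcription, and 10.8% of 32851 such promoters held a match. Ltf and Ngp held it, 2 of the 5. Both sequences are shown, 5′ to 3′ on the gene's strand with the match in capitals, because these granule genes moved together. They were chosen after their values were seen. The Ltf window is chr9:111019042-111019341 (plus strand), with 1 match beginning at position -75 from the start. The Ngp window is chr9:110419558-110419857 (plus strand), with 2 matches beginning at -138 and -11. The Ltf match and the second Ngp match are read on the opposite strand. A match is only the presence of these letters.
Ltf: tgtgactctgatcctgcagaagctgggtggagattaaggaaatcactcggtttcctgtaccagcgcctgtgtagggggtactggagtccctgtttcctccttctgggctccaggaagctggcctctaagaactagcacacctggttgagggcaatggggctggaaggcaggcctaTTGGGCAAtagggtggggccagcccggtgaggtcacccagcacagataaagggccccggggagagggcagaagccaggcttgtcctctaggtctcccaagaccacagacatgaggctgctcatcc
Ngp: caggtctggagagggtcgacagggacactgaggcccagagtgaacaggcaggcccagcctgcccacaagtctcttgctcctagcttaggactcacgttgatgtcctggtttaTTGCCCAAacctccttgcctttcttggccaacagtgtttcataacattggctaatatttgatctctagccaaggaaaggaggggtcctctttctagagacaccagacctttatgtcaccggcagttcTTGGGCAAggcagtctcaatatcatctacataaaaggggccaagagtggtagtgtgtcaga

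Outside the granule list, the genes that rose included transporters, ligands and enzymes of varied roles. Slc2a3, the glucose transporter GLUT3, read 7.45 and 6.85 in UNTD and 10.00 and 11.78 in RATD (3.75 ± 0.45, adjusted p = 0.00818). It was the member called among 26 glycolysis and glucose uptake genes (0.288% of all genes were called), whose median was -0.06. Ceacam10, an adhesion molecule of the CEA family, read 11.10 and 10.48 in UNTD and 12.67 and 14.48 in RATD (2.78 ± 0.44, adjusted p = 0.028). Rasl11b, a small GTPase, read 6.77 and 6.46 in UNTD and 8.57 and 10.70 in RATD (3.02 ± 0.52, adjusted p = 0.0413). Adtrp, a hydrolase of fatty acid esters, read 5.58 and 5.39 in UNTD and 8.07 and 9.28 in RATD (3.19 ± 0.42, adjusted p = 0.014). In each of these 4 genes RATD replicate 2 was the highest array and the groups did not overlap.

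Hdc, histidine decarboxylase, makes histamine in basophils and mast cells and is also found in immature granulocytes. It read 6.33 and 6.10 in UNTD and 8.84 and 8.79 in RATD (2.60 ± 0.31, adjusted p = 0.00818), with the treated arrays close to each other. Hdc was placed in both a list of 17 primary granule genes and one of 13 eosinophil, basophil and mast cell genes. It was the called gene of each (0.288% of all genes were called). The primary granule genes Mpo and Elane were not called. In the list of 13 genes, 7 members were higher and 0 lower at an unadjusted p under 0.05 (5.53% and 5.18% of all genes). The median of these 13 genes was 0.97 (1.22 in RATD replicate 1, 1.05 in replicate 2). Among them Prg2, the major basic protein of eosinophils, read 5.94 and 5.96 in UNTD and 7.54 and 8.24 in RATD (1.95 ± 0.52, adjusted p = 0.173). The basophil protease Mcpt8 read 9.73 and 9.22 in UNTD and 10.70 and 10.13 in RATD (0.94 ± 0.26, adjusted p = 0.192). Of the 4 measured mast cell, basophil and eosinophil markers, 3 were above the dim-signal level on all 4 arrays. Their sum was higher in both RATD arrays, as given above, and their part in the Hdc value was not tested.

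Several genes of signalling between cells also rose. Vcam1, the ligand of the integrin α4β1, read 7.07 and 6.24 in UNTD and 8.57 and 10.34 in RATD (2.79 ± 0.47, adjusted p = 0.0363). Ccl24, an eosinophil-attracting chemokine, read 7.27 and 6.32 in UNTD and 9.12 and 9.74 in RATD (2.64 ± 0.46, adjusted p = 0.0438). Tnfsf14, a TNF-family ligand also called LIGHT, read 5.40 and 5.61 in UNTD and 7.35 and 8.14 in RATD (2.24 ± 0.37, adjusted p = 0.0334). Lbp, which carries bacterial lipopolysaccharide to CD14, and Retnla, a resistin-like secreted protein, rose by 2.15 ± 0.36 and 1.27 ± 0.19. Cdkn1c, the cell cycle inhibitor p57, rose by 1.89 ± 0.33 (6.81 and 6.37 in UNTD, 8.11 and 8.85 in RATD, adjusted p = 0.0453). Among 25 cyclin-dependent kinase inhibitor and p53 target genes it was the called one (0.288% of all genes were called).

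Of the 28 genes that rose, Cnmd, Serpina11, Atp8a2 and Hormad2 were under the dim-signal level in both untreated arrays, so only a lower bound of their change is given. Cnmd, chondromodulin, read 2.04 and 1.30 in UNTD and 6.21 and 8.16 in RATD, which is at least 4.40-fold higher (adjusted p = 0.00818). An "at least" fold sets the treated mean against the dim-signal level of the untreated arrays. Serpina11, a serpin, was at least 3.07-fold higher (adjusted p = 0.0488), and Hormad2, a meiotic chromosome protein, at least 1.71-fold higher (adjusted p = 0.0488). Atp8a2, a phospholipid flippase, read 1.61 and 1.37 in UNTD and 6.34 and 6.60 in RATD, at least 2.68-fold higher (adjusted p = 0.000788). Its 2 other kept probe sets differed by 0.17 and -3.21, and the mean of its probe sets gave 0.65, so its probe sets disagree. Over all called genes, 24 further probe sets of 15 genes could be compared, and 23 had the same sign as the probe set used.

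**Figure D3:**
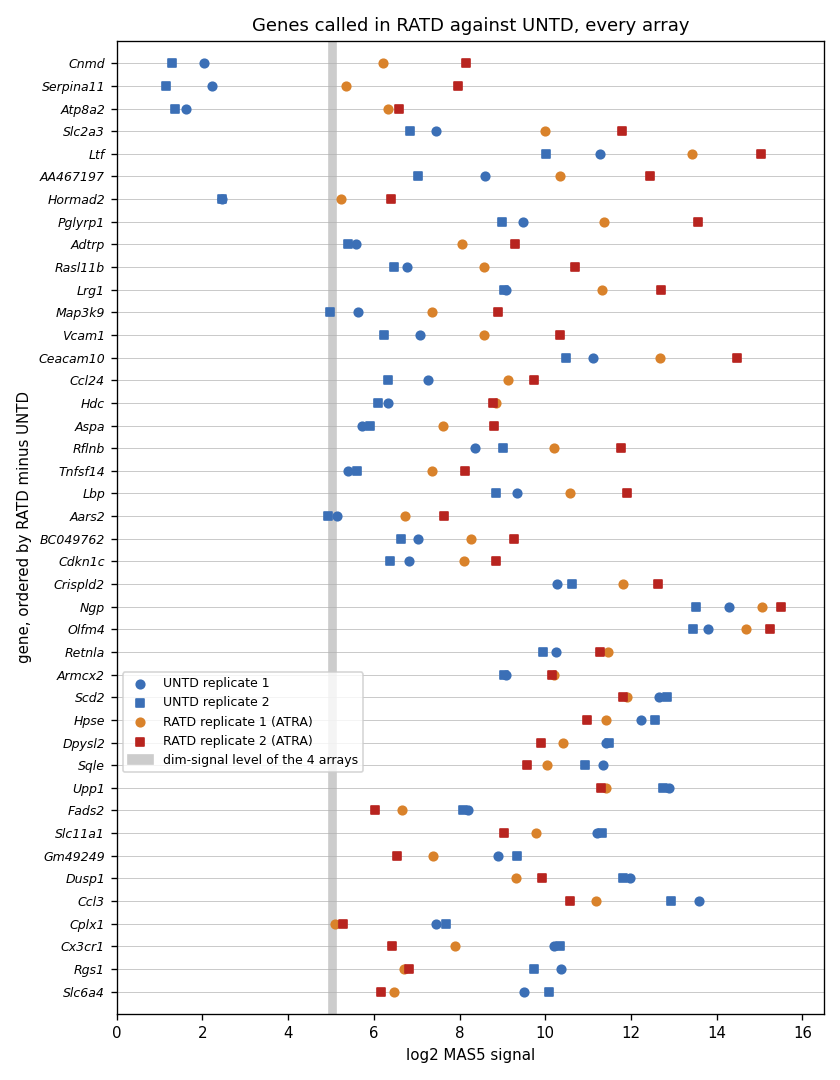
Log2 MAS5 signal of the 42 called genes on each of the 4 arrays (1 row per gene, ordered by RATD minus UNTD), with the range of dim-signal levels as a grey band. No row has overlapping groups, and Cnmd, Serpina11, Atp8a2 and Hormad2 lie left of the band in both UNTD arrays.

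Among the genes that fell were early-response regulators and chemokine system genes. Dusp1, a phosphatase that switches off MAP kinases, read 11.99 and 11.82 in UNTD and 9.33 and 9.93 in RATD (-2.28 ± 0.26, adjusted p = 0.00818). Against the UNTD mean it lay at -2.58 in RATD replicate 1 and -1.98 in replicate 2. Rgs1, a brake on G protein signalling from chemokine receptors, read 10.37 and 9.74 in UNTD and 6.71 and 6.82 in RATD (-3.29 ± 0.54, adjusted p = 0.0319). Both genes belong to a list of 43 immediate early genes, of which 0 rose and 2 fell (0.192% and 0.0960% of all genes). At an unadjusted p under 0.05, 17 of the 43 were lower and 1 higher (5.18% and 5.53% of all genes). Both RATD arrays lay below both UNTD arrays for 25 (20.3% of all genes). The list's median was -0.50, with -0.53 in RATD replicate 1 and -0.45 in replicate 2, so the 2 medians lay close together. Single members could still differ between the treated arrays, as Jun and Fos did. Jun, an AP-1 subunit, read 11.06 and 10.86 in UNTD and 9.94 and 8.86 in RATD (-1.56 ± 0.32, adjusted p = 0.0739). Fos, its partner, had -1.23 ± 0.28 (adjusted p = 0.11), with -0.80 in RATD replicate 1 and -1.66 in replicate 2 against the UNTD mean. Zfp36, which destabilises cytokine mRNA, had -0.91 ± 0.19 (adjusted p = 0.0745) and Nfkbia, the NF-κB inhibitor, was the higher member (0.84, adjusted p = 0.234).

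Cx3cr1, the fractalkine receptor of monocytes, read 10.21 and 10.35 in UNTD and 7.89 and 6.42 in RATD (-3.13 ± 0.47, adjusted p = 0.0268). Ccl3, the chemokine MIP-1α, read 13.58 and 12.92 in UNTD and 11.17 and 10.58 in RATD (-2.37 ± 0.32, adjusted p = 0.017). Ccl4, a related chemokine, read 10.41 and 9.63 in UNTD and 8.89 and 8.23 in RATD (-1.46 ± 0.30) and missed the threshold (adjusted p = 0.0743). Slc6a4, the serotonin transporter, read 9.51 and 10.09 in UNTD and 6.48 and 6.16 in RATD (-3.48 ± 0.43, adjusted p = 0.00818). In all 4 genes the groups were separated, and of the 4 only Cx3cr1 had treated arrays more than 1 unit apart. Upp1, uridine phosphorylase, and Hpse, heparanase, fell by 1.47 ± 0.23 and 1.20 ± 0.19 on the log2 scale.

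Of 26 measured cholesterol and fatty acid synthesis genes, 3 fell and 0 rose (0.0960% and 0.192% of all genes). Both RATD arrays lay below both UNTD arrays for 17 of the 26 and above them for 1 (20.3% and 19.9% of all genes). Sqle, squalene epoxidase of the cholesterol pathway, read 11.34 and 10.92 in UNTD and 10.05 and 9.58 in RATD (-1.32 ± 0.21, adjusted p = 0.028). Fads2, the desaturase that starts the synthesis of long polyunsaturated fatty acids, read 8.20 and 8.08 in UNTD and 6.67 and 6.02 in RATD (-1.80 ± 0.29, adjusted p = 0.0304). Scd2, a desaturase that makes monounsaturated fatty acids, read 12.66 and 12.85 in UNTD and 11.91 and 11.81 in RATD (-0.90 ± 0.14, adjusted p = 0.0304). At an unadjusted p under 0.05, 14 of the 26 were lower and 0 higher (5.18% and 5.53% of all genes). The median was -0.53 (-0.42 in RATD replicate 1, -0.55 in replicate 2) and stayed between -0.53 and -0.44 under the other 2 scalings of the arrays. Among members that missed the threshold, Srebf1, a transcription factor of this pathway, read 11.12 and 11.06 in UNTD and 10.20 and 10.18 in RATD (-0.90, adjusted p = 0.0745). Cyp51, which demethylates lanosterol, had -0.82 (adjusted p = 0.116).

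Of 29 measured retinoid response genes, 0 were called in either direction, and 3 were higher and 3 lower at an unadjusted p under 0.05. Over all genes 0.288% were called, and 5.53% were higher and 5.18% lower at that p. At such a share, 0 calls among 29 genes is no result about the list. Cyp26a1, the retinoic acid hydroxylase, read 5.34 and 3.02 in UNTD, 9.07 in RATD replicate 1 and 8.26 in RATD replicate 2. The difference was 4.48 ± 0.91 and missed the threshold (adjusted p = 0.0739), with 1 of 2 UNTD arrays above the dim-signal level. Both treated arrays lay above both untreated arrays, and RATD replicate 1, the array nearer to UNTD over all genes, had the higher value. Pram1, a neutrophil adaptor induced by retinoic acid in APL cells, read 10.61 and 10.43 in UNTD and 11.20 and 12.88 in RATD (1.52 ± 0.39, adjusted p = 0.15). Dhrs3, a retinaldehyde reductase, read 11.09 and 11.30 in UNTD and 10.49 and 11.04 in RATD (-0.43 ± 0.23, adjusted p = 0.564). Asb2, a ubiquitin ligase subunit induced by retinoic acid in APL cells, had 0.82 ± 0.73 (adjusted p = 0.784) and the transglutaminase Tgm2 0.11 ± 0.46 (adjusted p = 0.972). Of the receptors, Rara had -0.69 ± 0.66 and Rarg -0.62 ± 0.26, neither called, and Rarb was under the dim-signal level on all 4 arrays. Pml had 0.55 ± 0.34 with overlapping groups. Cd38 was not among the genes tested.

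The Cyp26a1 promoter is shown because it carries a retinoic acid response element in its classic form, a direct repeat of AGGTCA-like half-sites spaced by 5 bases (DR5). The search covered both strands of the same RefSeq windows, and 32 of 32851 promoters held a DR5 (0.0974%). Of 30 retinoid response genes with a promoter in the table, 2 held it, Cyp26a1 and Rarb. A repeat spaced by 2 bases (DR2) was in 0 of the 30 and in 0.268% of all promoters. The window is chr19:37697558-37697857 (GRCm38.p6, plus strand), and the match, in capitals and read on the opposite strand, begins at position -32.
Cyp26a1: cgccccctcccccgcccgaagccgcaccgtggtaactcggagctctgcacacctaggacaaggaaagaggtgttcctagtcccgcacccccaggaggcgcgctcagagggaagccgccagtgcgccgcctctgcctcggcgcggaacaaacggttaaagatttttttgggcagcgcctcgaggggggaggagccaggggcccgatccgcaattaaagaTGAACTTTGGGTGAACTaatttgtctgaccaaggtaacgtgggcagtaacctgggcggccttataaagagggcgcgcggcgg

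Genes that define the promyelocyte and the mature phagocyte mostly did not pass the test. Mpo, myeloperoxidase of the primary granules, read 14.28 and 13.66 in UNTD and 14.29 and 13.33 in RATD (-0.16 ± 0.27, adjusted p = 0.916). Elane, neutrophil elastase, read 12.98 and 12.46 in UNTD and 13.31 and 13.90 in RATD (0.88 ± 0.22, adjusted p = 0.142). The calprotectin genes S100a8 (0.13 ± 0.19) and S100a9 (0.08 ± 0.20) had overlapping groups. Cybb, the membrane subunit that carries electrons in the phagocyte oxidase, had 0.17 ± 0.23, and Fpr2, a formyl peptide receptor, -0.29 ± 0.21. Kit, the stem cell factor receptor, had 0.14 ± 0.20, Myc -0.26 ± 0.21, and Spi1, the myeloid transcription factor PU.1, 0.00 ± 0.18. The signs of Mpo, Kit, Myc, S100a8, S100a9, Cybb and Spi1 changed with 1 array left out, and those of S100a9 and Spi1 also with quantile normalization. Gfi1, a repressor needed for neutrophil development, read 11.46 and 11.08 in UNTD and 12.09 and 13.26 in RATD (1.41 ± 0.30, adjusted p = 0.082). Cebpe, a regulator of secondary granule genes, was not among the genes tested. Of 24 respiratory burst and phagocytosis genes, 0 were called, and 2 were higher and 2 lower at an unadjusted p under 0.05. Over all genes 0.288% were called, and 5.53% were higher and 5.18% lower at that p. At such a share, 0 calls among 24 genes is no result about the list.

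Cell cycle genes leaned slightly upwards without calls. Of 56, 0 were called (0.288% of all genes). At an unadjusted p under 0.05, 7 were higher and 0 lower (5.53% and 5.18% of all genes). The median was 0.27 (0.26 in RATD replicate 1, 0.25 in replicate 2). Cdc25a, the phosphatase that activates cyclin-dependent kinases, read 10.74 and 10.52 in UNTD and 11.19 and 11.88 in RATD (0.90 ± 0.23, adjusted p = 0.145). Both RATD arrays lay above both UNTD arrays for 26 of the 56 and below them for 0 (19.9% and 20.3% of all genes). Of 41 DNA replication and nucleotide supply genes, 0 were called (0.288% of all genes). Their median was 0.17 (0.31 in RATD replicate 1, 0.03 in replicate 2). At such a share, 0 calls among 56 or 41 genes is no result about either list.

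Macrophage and monocyte genes separated the 2 treated arrays. Of 29 macrophage genes, 1 rose (Vcam1) and 0 fell (0.192% and 0.0960% of all genes). At an unadjusted p under 0.05, 2 were higher and 12 lower (5.53% and 5.18% of all genes). The median was -0.43 in RATD replicate 1 and -1.26 in replicate 2. Adgre1, which encodes the macrophage antigen F4/80, read 11.64 and 11.68 in UNTD, 11.23 in RATD replicate 1 and 9.47 in replicate 2 (-1.31 ± 0.41, adjusted p = 0.258). Cd68, a lysosomal protein of macrophages, read 13.25 and 13.09 in UNTD, 12.75 and 11.07 in RATD. Csf1r read 13.61 and 13.79 in UNTD, 13.48 and 12.19 in RATD (-0.86 ± 0.35, adjusted p = 0.403). In these genes RATD replicate 1 lay near the untreated arrays and RATD replicate 2 lower. Apoe, a lipid carrier, and Gpnmb, a lysosomal glycoprotein of foamy macrophages, were lower on both treated arrays. Apoe read 11.27 and 11.82 in UNTD and 10.27 and 9.61 in RATD (-1.60 ± 0.35, adjusted p = 0.0941). Gpnmb read 10.77 and 10.92 in UNTD and 9.30 and 8.09 in RATD (-2.15 ± 0.43, adjusted p = 0.0739). Of 32 monocyte and dendritic cell genes 1 fell (Cx3cr1), beside 0.0960% of all genes. Their medians were 0.03 in RATD replicate 1 and -0.68 in replicate 2. At an unadjusted p under 0.05, 1 of the 32 was higher and 4 were lower (5.53% and 5.18% of all genes). The higher one was Ly86, the MD-1 protein that binds RP105, also one of the 10 monocyte and macrophage markers. It read 7.21 and 6.99 in UNTD and 9.32 and 9.29 in RATD (2.20 ± 0.54, adjusted p = 0.125). Interferon response genes (52, 0 called, beside 0.288% of all genes) had medians of 0.18 in RATD replicate 1 and -0.55 in replicate 2. At such a share, 0 calls among 52 genes is no result about the list.

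**Figure D4:**
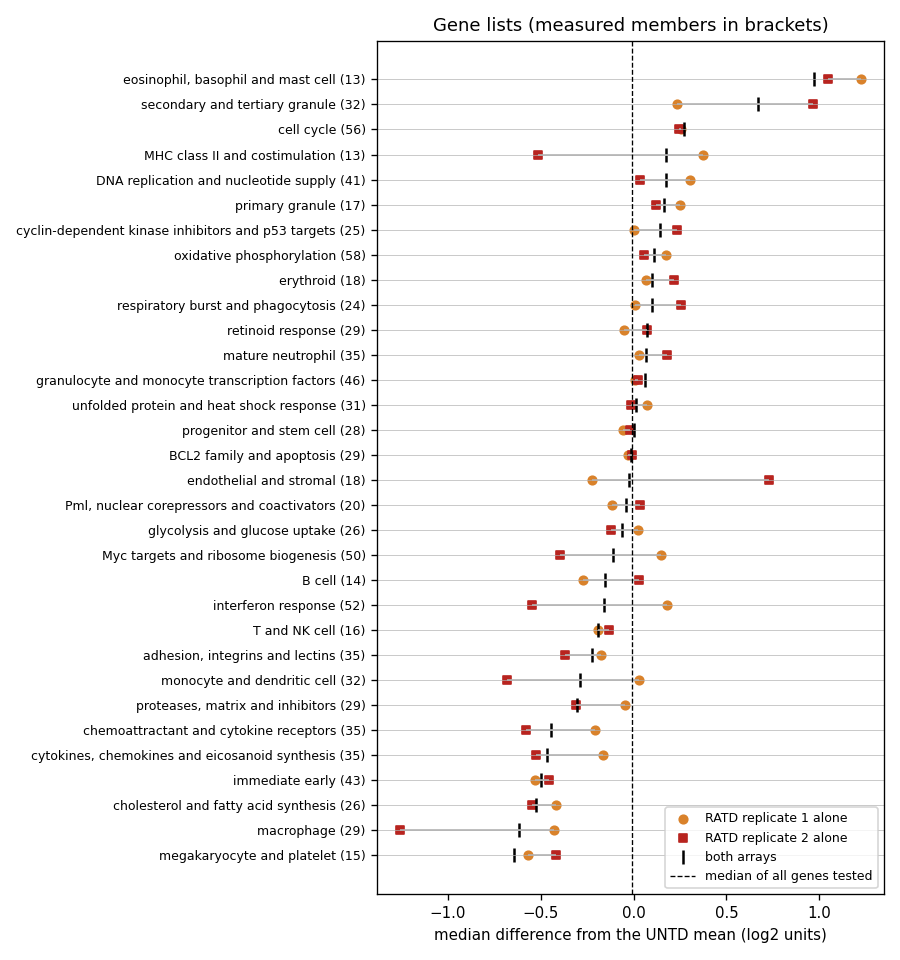
Median difference from the UNTD mean (log2 units) over the measured members of 32 gene lists, for RATD replicate 1 (circle), RATD replicate 2 (square) and both arrays (bar), with the number measured in brackets and the median of all genes as a dashed line. The medians of the treated arrays lie close together for immediate early (-0.53 and -0.45) and cholesterol and fatty acid genes (-0.42 and -0.55). They lie apart for macrophage genes (-0.43 and -1.26).

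Some genes stood apart from UNTD mainly in 1 treated array. Ifitm1, an interferon-induced membrane protein, read 13.82 and 13.52 in UNTD, 12.38 in RATD replicate 1 and 9.39 in replicate 2. Both arrays together did not call it (-2.79 ± 0.64, adjusted p = 0.113). Against the UNTD mean it lay at -1.30 in RATD replicate 1 and -4.28 in replicate 2. Stox2, a winged-helix protein, read 11.30 and 11.35 in UNTD, 9.76 and 6.48 in RATD, and Emp1, an epithelial membrane protein, 11.69 and 10.87, then 9.71 and 6.13. For these the second treated array lay over 2 units below the first. Il18r1, the interleukin-18 receptor, was high in the other direction, at 5.91 and 4.66 in UNTD, 6.76 in RATD replicate 1 and 9.97 in replicate 2. Tmem45a2 was at least 13.1-fold higher over both arrays (adjusted p = 0.0743), with 7.12 in RATD replicate 1 and 10.39 in replicate 2. Igha, the immunoglobulin A heavy chain, was higher in RATD replicate 1 than in replicate 2, at 7.11 and 7.63 in UNTD, 12.13 in RATD replicate 1 and 9.30 in replicate 2 (3.35 ± 0.64, adjusted p = 0.0675). Jchain, which joins IgA and IgM units, read 5.96 and 5.81 in UNTD, 9.82 and 7.33 in RATD. The B cell markers Cd79b, Ms4a1 and Pax5 summed to 51.4 in RATD replicate 1, 112 in replicate 2 and 86.4 and 49.8 in UNTD, and their part in the Igha and Jchain values was not tested.

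The ATRA difference in TD was then set against that in the PD subset, which shares no arrays with it. The PD comparison called 1173 genes (8.04%), 708 higher (4.86%) and 465 lower (3.19%). The TD difference minus the PD difference was called for 35 genes (0.240%), 9 in the higher direction (0.0617%) and 26 in the lower (0.178%). The phagocyte receptor Fpr2 gave the most certain difference. It read 13.44 and 13.46 in UNTD and 13.10 and 13.21 in RATD, and 7.70 and 8.29 in UNPD and 12.50 and 12.10 in RAPD. The TD difference was -0.29 ± 0.21, the PD difference 4.31 ± 0.21, and the first minus the second -4.60 ± 0.30 (adjusted p = 7.61e-05). Cybb (-2.41 ± 0.33, adjusted p = 0.0167) and Dhrs3 (-2.36 ± 0.33, adjusted p = 0.0167) also rose in PD and were not called in TD. The same held for the Src-family kinase Fgr (-2.41 ± 0.26, adjusted p = 0.00457), with -0.58 ± 0.19 in TD (adjusted p = 0.282). Untreated levels differed between the subsets. Cybb read 14.40 and 14.21 in UNTD, 11.60 and 11.65 in UNPD and 14.41 and 13.99 in RAPD. Fgr read 10.94 and 11.17 in UNTD, 8.34 and 8.34 in UNPD and 10.11 and 10.23 in RAPD. Dhrs3 read 11.09 and 11.30 in UNTD, 9.77 and 9.56 in UNPD and 11.55 and 11.64 in RAPD. The transcription factor Klf2 had opposite signs in the subsets. It read 10.22 and 10.22 in UNTD and 8.84 and 9.09 in RATD (-1.25 ± 0.23, adjusted p = 0.0591). Klf2 rose in PD (1.75 ± 0.23), and the first minus the second was -3.01 ± 0.33 (adjusted p = 0.00457). In the other direction, Hdc differed by 3.20 ± 0.44 (adjusted p = 0.0167), with 8.55 and 9.50 in UNPD and 8.23 and 8.61 in RAPD and 8.84 and 8.79 in RATD. Phgdh, the first enzyme of serine synthesis, fell in PD (-2.29 ± 0.26) and not in TD (0.11 ± 0.26), a difference of 2.41 ± 0.37 (adjusted p = 0.0319). For Ltf the difference was 3.59 ± 0.48 in TD and 3.76 ± 0.48 in PD, and the first minus the second was -0.17 ± 0.67 (adjusted p = 0.926). With each array set to a common 75th percentile the median of the TD minus PD difference over all genes was 0.30 in place of 0.02 (0.15 with quantile normalization), and 82 genes were called, 51.2% in the higher direction in place of 25.7%. The count was 1374 without RAPD replicate 2, 175 without RATD replicate 2, 11 without UNPD replicate 1, 9 without RAPD replicate 1, 5 without UNTD replicate 1 and 3 without UNTD replicate 2.

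**Figure D5:**
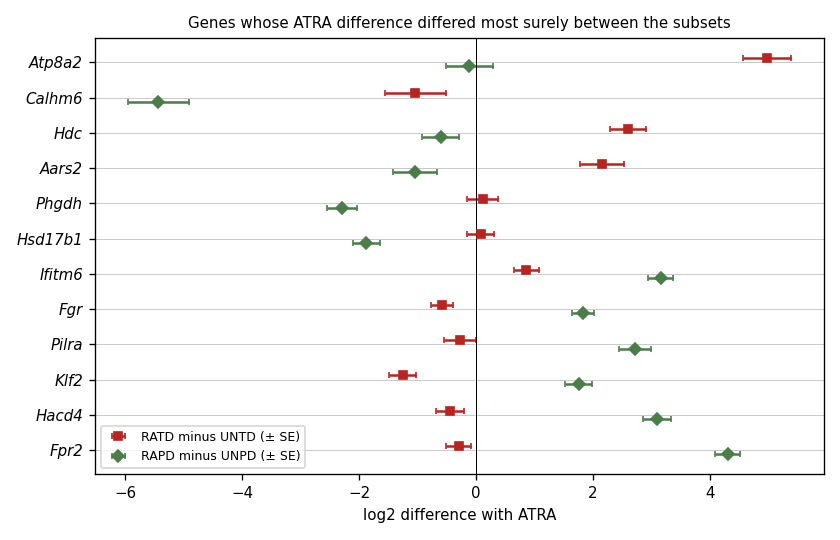
Log2 difference with ATRA in the TD subset (red squares, RATD minus UNTD) and in the PD subset (green diamonds, RAPD minus UNPD), with ± SE of the fit, for the 6 genes of smallest p in each direction of the TD minus PD difference. The TD value of Atp8a2 and the PD value of Calhm6 are against a group under the dim-signal level and have no exact size. Fpr2 stands at -0.29 in TD and 4.31 in PD, and Hdc at 2.60 in TD and -0.61 in PD.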

How the data were processed

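The authors summarised the arrays with MAS5 per the submitters' processing notes, which state no version. The deposited table holds 45037 probe sets on a log2 scale, as judged from the values. MAS5 scales each array to a trimmed mean only, so distributions can still differ. No detection calls were used. Of the probe sets, 34945 carried 1 gene symbol in the platform annotation, 932 several and 9160 none. Probe sets were kept if at least 2 arrays had them above that array's 40th percentile (32686, 72.6%), and the probe set of highest mean stood for a gene, giving 14581 genes.

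All 10 arrays entered 1 limma 3.58.1 fit in R 4.3.3 (5 group means, eBayes with intensity trend, 5 residual and 6.57 prior degrees of freedom), with two-sided tests, Benjamini-Hochberg adjustment and a threshold of 0.05. Equal spread in the 5 groups is assumed. Between the arrays of a group, bright genes differed with an SD from 0.158 (UNSC) to 0.503 (RAPD). That SD was 0.256 for UNTD and 0.467 for RATD, so the spread was unequal. The error of RATD minus UNTD draws on all 5 groups. The number of arrays limits the precision. The fit was also run on simulated data, in which the noise of a gene was normal and equal in all 5 groups. Unequal spread was not simulated, so that run does not bear on the calls here. The comparison, the 32 gene lists and the markers were chosen with earlier results of these data known.

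Named genes are the 10 called genes of largest difference in each direction with full symbols, up to 4 members of smallest p per list, 24 anchor genes, the 10 genes highest and lowest in each RATD array alone, and the 6 of smallest p in each direction of the TD minus PD difference. Not all are printed, and some other called genes and list members were named after their values were seen. Alternatives varied the scaling, the filter, the probe set rule, the spread model, the arrays fitted and the replicate block. Promoters are RefSeq's for GRCm38.p6.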

Additional observations from a re-analysis of the deposited data

Results flagged for a closer look

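For 18 named genes the ATRA difference in TD differed from that in PD by the test of the difference itself (limma, adjusted p under 0.05), and each value here is the log2 difference in TD minus that in PD. In the higher direction the fitted value was 5.09 for Atp8a2 and 4.40 for Calhm6, but neither is an exact size. Atp8a2 was under the dim-signal level in both UNTD arrays (at least 2.68-fold higher in TD), and Calhm6 in both RAPD arrays (at least 5.02-fold lower in PD). It was 3.20 for Hdc and 3.19 for Aars2, the latter with only 1 of 2 UNTD arrays above the dim-signal level (5.14 and 4.94). The value was 2.41 for Phgdh, 2.17 for Mcpt8, 2.12 for Vpreb1 and 1.96 for Hsd17b1. Of these, Atp8a2, Hdc and Aars2 rose in TD, and Phgdh, Calhm6, Hsd17b1, Mcpt8 and Vpreb1 fell in PD. In the lower direction it was -4.60 for Fpr2, -3.53 for Hacd4, -3.25 for Fcgr4, -3.01 for Klf2, -2.98 for Pilra, -2.41 for Fgr, -2.41 for Cybb, -2.36 for Dhrs3, -2.30 for Ifitm6 and -1.54 for Zfp36. All of these but Zfp36 rose in PD, and 0 of the 10 were called in TD by limma. In each of the 10 both UNTD arrays lay above both UNPD arrays, so the untreated levels differed. At an unadjusted p under 0.05 in TD, Fgr, Fcgr4, Klf2, Ifitm6 and Zfp36 passed. The other probe sets of Atp8a2 did not share its difference, as given above.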

How the results depend on the processing

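With 2 arrays a group, the count of calls depended on the spread model and on single arrays. Of the 42 genes called for RATD against UNTD, 42 kept their sign in all settings that measured them. Their groups did not overlap, so leaving out 1 array or changing only the spread model could not change a sign. The count was 115 with a common 75th percentile, 25 without the filter on dim probe sets, 1 without the intensity trend and 0 with the contrast's arrays alone (1263 at an unadjusted p under 0.05). Leaving out 1 array gave 1 to 856. Quantile normalization (62), the 60th percentile filter (38), the mean of kept probe sets (34) and array weights (57) stayed within 1.5 times. The 35 calls for TD minus PD became 82, 14, 4 and 13 in the first 4 settings, and 3 to 1374 with 1 array left out. Genes past 1 log2 unit numbered 1923 higher and 1909 lower in RATD replicate 1, and 2493 and 2370 in replicate 2, without the filter. With the 60th percentile filter they numbered 184 and 169, and 527 and 670. The replicate deviations of UNTD and RATD had a correlation of -0.02 over all genes, which cannot decide whether samples of the same number were paired. With the replicate block 32 genes were called for RATD against UNTD and 20 for TD minus PD.

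Among 97 named genes, 13 changed sign in some setting, and 0 of the 13 were called for RATD against UNTD. Quantile normalization gave -0.0196 for S100a9 and -0.0386 for Spi1, and the mean of kept probe sets -0.0201 for Kit. With 1 array left out the values ran from -0.33 to 0.10 for Cd79b, -0.85 to 2.88 for Csn1s2a, -0.22 to 0.56 for Cybb, -0.0367 to 0.31 for Kit, -0.64 to 0.32 for Mpo and -3.99 to 0.52 for Ms4a1. They ran from -0.54 to 0.0241 for Myc, -0.13 to 0.35 for Phgdh, -0.59 to 3.82 for Rarb, -0.11 to 0.37 for S100a8, -0.20 to 0.36 for S100a9, -0.18 to 0.19 for Spi1 and -0.13 to 0.35 for Tgm2. The cause was not tested. Values near the dim-signal level carry the least signal over background.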

Other observations

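RATD replicate 1 lay near the untreated arrays over most genes, but some genes stood out in it among the 4 TD arrays. The genes given here were chosen after their values were seen. Among them 3 encode caseins, the proteins of milk. Csn2, β-casein, read 12.61 and 12.17 in UNTD, 14.34 in RATD replicate 1 and 12.72 in replicate 2 (limma adjusted p = 0.3 for both arrays). Csn1s1 read 7.66 and 7.52 in UNTD, 10.59 and 8.50 in RATD. Csn1s2a read 8.83 and 7.80 in UNTD, 11.19 and 7.47 in RATD. For all 3 the first treated array was the highest of the 4, and the second lay among or near the untreated arrays. Igkv8-30, an immunoglobulin light chain segment, read 4.24 and 5.43 in UNTD, 8.62 and 6.79 in RATD, the same order of arrays as Igha and Jchain. Plbd1, a phospholipase of neutrophil granules, read 6.97 and 6.78 in UNTD, 9.64 and 7.72 in RATD. Ly6k, a member of the Ly6 family, read 10.53 and 10.59, then 11.97 and 10.83. Outside TD, Csn2 read 14.55 and 14.25 in RAPD. Ly6k read 11.97 and 11.96 in UNSC and 12.73 and 12.52 in UNPD, so neither gene was high in RATD replicate 1 only. Csn1s1, Csn1s2a, Igkv8-30 and Plbd1 were lower on every UNSC, UNPD and RAPD array than in RATD replicate 1.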
